A study of Mus musculus with 12 samples.

Results

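The matrix metalloproteinases (MMPs) and their tissue inhibitors (TIMPs) were followed in cardiomyocytes of mice with and without desmin, the intermediate filament protein of striated muscle. The members were the 10 genes Timp1, Timp2, Timp3, Timp4, Mmp2, Mmp3, Mmp9, Mmp12, Mmp14 and Mmp15. They were taken by gene symbol from the count tables, which list 21493 genes, and each symbol had 1 entry in every table.

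Poly-A RNA of isolated adult cardiomyocytes was sequenced in 12 libraries, 3 in each of 4 groups. Des+/+ non-swim mice carried both desmin alleles and did not swim, and Des+/+ swim mice had the same genotype and underwent swimming exercise as a stress. Des-/- non-swim mice lacked desmin and did not swim, and Des-/- swim mice lacked desmin and swam. All mice were 3 months old, all hearts were digested with trypsin and collagenase D, and the cells were harvested directly after isolation. Each library was a pool of cells from several mice, so the spread between replicates is a spread between pools. The null allele is carried by every cell type of the heart and not by cardiomyocytes alone. The comparisons address how the absence of desmin and swimming stress alter cardiomyocyte transcripts.

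MMPs are zinc-dependent proteases, most of them made as inactive precursors, that cut collagens and other proteins of the extracellular matrix. TIMPs bind active MMPs and block them, and TIMP-2 also takes part, together with the membrane-bound MMP-14, in the activation of the MMP-2 precursor. In the heart both families are known for their part in matrix turnover after injury and in dilated cardiomyopathy, and fibroblasts, macrophages and endothelial cells are known sources besides cardiomyocytes.

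Reads assigned to genes ranged from 4320819 to 12072443 per library, and a floor of 3 counts corresponded to between 0.262 and 0.656 CPM (a gene's reads relative to the total of its library, scaled between libraries by edgeR's TMM method), which covers counting error only. Desmin transcripts fell from 2367 ± 1137 CPM (SD, n = 3) in Des+/+ non-swim to 59.5 ± 11.3 CPM in Des-/- non-swim libraries (edgeR adjusted p = 0.000157), the direction that the labels give. All 12 cardiomyocyte markers were detected in each library, but their summed level was 72935 to 110472 CPM in Des+/+ non-swim, 35822 to 58624 CPM in Des+/+ swim, 7224 to 33913 CPM in Des-/- non-swim and 17771 to 29717 CPM in Des-/- swim libraries. The 12 fibroblast markers summed to 3726 to 4086 CPM, 2669 to 3643 CPM, 8853 to 37196 CPM and 4463 to 12973 CPM in the same order, and the 12 macrophage markers to 259 to 383 CPM, 309 to 362 CPM, 457 to 4461 CPM and 280 to 1449 CPM. In both Des-/- groups replicate 3 stood apart, with the group's highest fibroblast and macrophage sums and its lowest cardiomyocyte sum. Calls between genotypes are therefore also given without these libraries, a choice made after seeing the data. In such bulk samples fewer cells of a type and less RNA per cell cannot be told apart.

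The promoters of 3 members on which the results below turn are shown first, as the 250 bases before the annotated start of each gene in RefSeq (build GRCm38.p6, plus strand). Capitals mark matches to 4 short motifs searched on both strands, namely AP-1 (TGANTCA), the TATA box (TATAAA), the GC box (GGGCGG, or CCGCCC where it lies on the other strand) and an ETS core (AGGAAG). By edgeR, Timp1 was called higher in Des-/- libraries in both exercise states, Mmp3 after swimming and Mmp14 without it. Mmp3 also lay higher in all Des-/- libraries without swimming, but was not called there (edgeR adjusted p = 0.0776).
Timp1, chrX:20869916-20870165: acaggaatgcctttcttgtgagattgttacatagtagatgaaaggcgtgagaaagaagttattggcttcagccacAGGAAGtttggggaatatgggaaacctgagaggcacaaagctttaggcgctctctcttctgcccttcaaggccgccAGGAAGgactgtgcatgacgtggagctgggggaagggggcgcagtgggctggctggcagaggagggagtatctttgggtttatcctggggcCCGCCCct
Mmp3, chr9:7445572-7445821: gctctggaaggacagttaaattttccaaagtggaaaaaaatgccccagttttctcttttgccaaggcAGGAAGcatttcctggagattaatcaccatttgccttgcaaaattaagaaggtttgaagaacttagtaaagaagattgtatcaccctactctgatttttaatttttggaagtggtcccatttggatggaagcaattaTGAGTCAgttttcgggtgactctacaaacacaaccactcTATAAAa
Mmp14, chr14:54431348-54431597: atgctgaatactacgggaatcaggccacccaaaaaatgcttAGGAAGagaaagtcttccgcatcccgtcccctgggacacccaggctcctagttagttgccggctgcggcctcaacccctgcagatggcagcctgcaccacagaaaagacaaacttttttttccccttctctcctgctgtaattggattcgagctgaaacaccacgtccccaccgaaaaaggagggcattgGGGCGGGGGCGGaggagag

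The Mmp3 window held an AP-1 match that began 46 bases before the start and a TATA box that began 7 bases before it. The Mmp14 window held neither of these, but had 2 GC boxes that abut each other 19 and 13 bases before the start. The Timp1 window had 1 GC box and 2 ETS cores. Among 32851 promoter windows of the same length, 6.75% held the AP-1 motif, 12.4% the TATA box, 32.7% the GC box and 29.5% the ETS core. A promoter entry was found for 8 of the 10 members, those other than Mmp2 and Mmp9. Of these 8, Mmp3 and Mmp12 had an AP-1 match, at 46 and 44 bases before the start, the latter in the second of the 2 windows of Mmp12 (chr9:7347124-7347373). These matches are descriptions of letters, and binding was not measured.

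Without swimming, transcripts of Timp1, Timp2, Mmp2, Mmp12 and Mmp14 were called higher in Des-/- than in Des+/+ libraries, and no member was called lower. Apart from Mmp12, whose fitted 53.8-fold difference rests on 1 library, the increases ranged from 2.21-fold for Mmp2 and 2.37-fold for Timp2 to 16.1-fold for Timp1 (fitted values). Timp1, Timp2 and Mmp2 stayed called in all 6 fits that left out 1 library of the comparison, and Mmp14 in 2. Without the Des-/- non-swim replicate 3 the Timp1 increase fell from 4.01 to 2.75 on the log2 scale. After swimming, Timp1 (14.3-fold) and Mmp3 (13.1-fold) were called higher in Des-/- cells, a term that here and below covers all cells of an isolate. With 1 library of that comparison left out, the Timp1 call was kept in 2 of 6 fits and the Mmp3 call in 4. Relative to the summed fibroblast markers, as given below, Timp1 still lay higher in Des-/- non-swim than in Des+/+ non-swim libraries. On that scale Mmp14 overlapped between these groups, and Timp2 and Mmp2 lay lower in Des-/-. Collagens made up more of that marker sum in Des-/- non-swim than in Des+/+ non-swim libraries. The part of other cell types in the increases was not tested. Of the 10 members, 9 passed the filter on low counts and 5 were called without swimming, where 32.0% of all 13158 genes tested were called, 14.0% higher and 18.0% lower. After swimming 2 members were called, both higher, against 10.6% of all genes, 5.01% higher and 5.57% lower. DESeq2 called 5 members in each of these comparisons, against 36.4% of all genes without and 17.7% after swimming. The 9 tested genes are not all members, and Mmp12 reached the level set by the filter in 3 Des-/- non-swim, 2 Des-/- swim and 1 Des+/+ swim library, so these counts are descriptions.

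**Figure D1:**
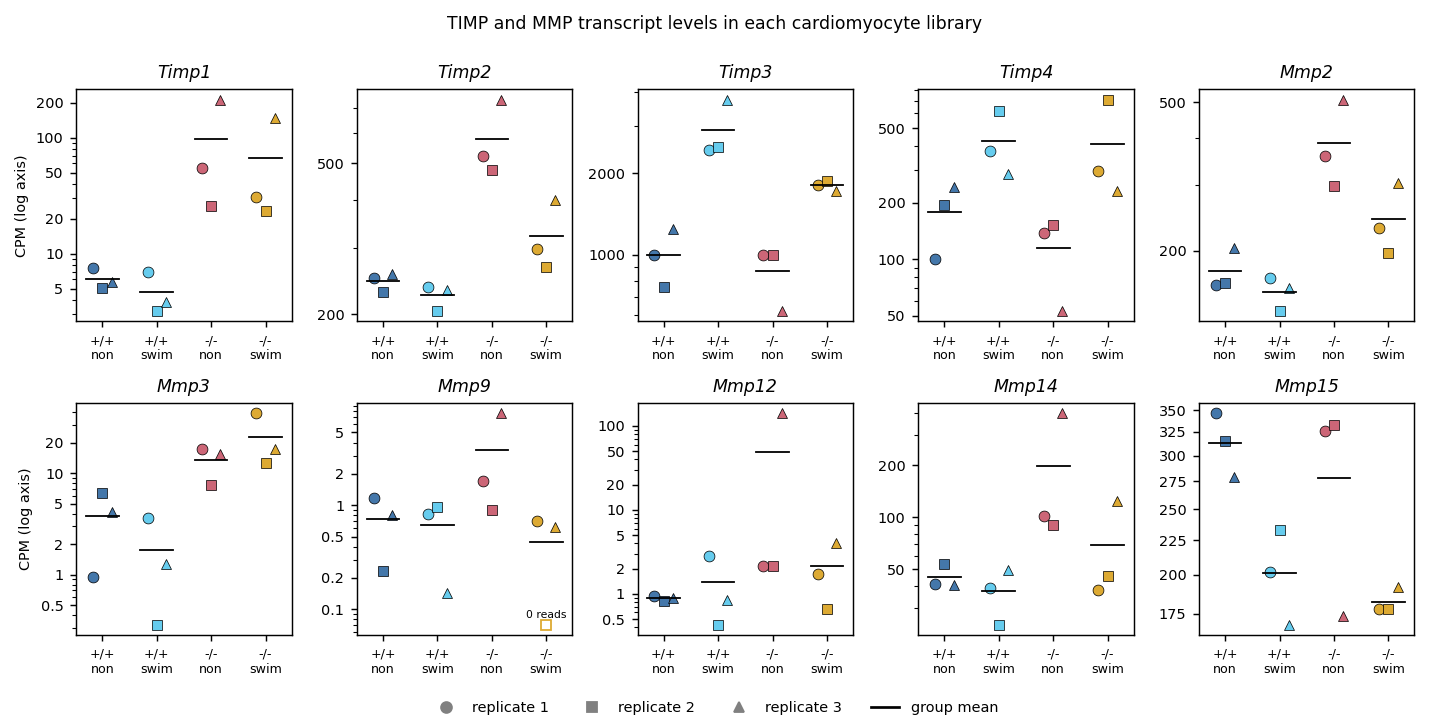
Level of each of the 10 genes in every library in CPM (log axis, a scale of its own in each panel), by group (+/+ and -/- for the desmin genotype, non for non-swim), with a symbol for each replicate number and a line at the group mean (n = 3). Timp1 and Timp2 lie higher in all Des-/- than in all Des+/+ libraries of the same exercise state, Timp3 lies higher in all swim than in all non-swim libraries of the same genotype, and the Mmp12 mean of the Des-/- non-swim group rests on replicate 3.

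Timp1, an inhibitor of most secreted MMPs that is known to be induced in injured tissue (ENSMUSG00000001131, chromosome X:20870166-20874735 on the plus strand, GRCm38), had a low level in all Des+/+ libraries. Its level in replicates 1, 2 and 3 was 7.54, 5.03 and 5.68 CPM in the Des+/+ non-swim group and 6.97, 3.21 and 3.84 CPM in the Des+/+ swim group. In Des-/- libraries the values were 55.3, 25.8 and 213 CPM in the non-swim group and 30.9, 23.2 and 147 CPM in the swim group. The lowest Des-/- library thus lay above the highest Des+/+ library in both exercise states, and replicate 3 was the highest in both Des-/- groups. Without swimming the fitted increase in Des-/- cells was 4.01 ± 0.87 (log2 scale, SE, edgeR adjusted p = 0.00593). After swimming it was 3.84 ± 0.89 (edgeR adjusted p = 0.0242).

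The size of the Timp1 increase depended on replicate 3. Without the Des-/- non-swim replicate 3 the log2 change was 2.75 and still called. After swimming it was 2.53 without the Des-/- swim replicate 3, and the call was lost (edgeR adjusted p = 0.0674). The latter call was also lost when any 1 of the 3 Des+/+ swim libraries was left out (edgeR adjusted p = 0.0569, 0.0715 and 0.0945). With both of the Des-/- libraries numbered 3 left out of the fit, the changes were 2.80 and 2.54 on the log2 scale and both were called (edgeR adjusted p = 0.000827 and 0.00982).

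Timp2, the inhibitor that also assists MMP-2 activation (ENSMUSG00000017466, chromosome 11:118301069-118355740, minus strand), had a narrow spread within the Des+/+ groups (SD 13.6 and 17.5 CPM). The spread was wider in the Des-/- groups (SD 137 and 70.4 CPM), and replicate 3 was the highest in both. Timp2 stood at 250, 229 and 255 CPM in Des+/+ non-swim, 237, 204 and 232 CPM in Des+/+ swim, 522, 481 and 736 CPM in Des-/- non-swim, and 298, 266 and 401 CPM in Des-/- swim libraries. The genotypes did not overlap in either exercise state, and within Des-/- cells all non-swim libraries lay above all swim libraries. Without swimming Timp2 rose by 1.24 ± 0.20 on the log2 scale (edgeR adjusted p = 0.00132), and it stayed between 1.04 and 1.36 with a call when any library of the comparison was left out. After swimming it was 0.52 ± 0.20 and did not pass the test (edgeR adjusted p = 0.101), whereas DESeq2 called it (adjusted p = 0.0466).

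Timp3, which is held in the extracellular matrix and is the only TIMP bound there in this way (ENSMUSG00000020044, chromosome 10:86300372-86349506, plus strand), had the highest mean level per length of exon among the members in 3 of the 4 groups, the exception being Des-/- non-swim. Its values were 994, 761 and 1242 CPM in Des+/+ non-swim, 2450, 2507 and 3752 CPM in Des+/+ swim, 999, 1002 and 620 CPM in Des-/- non-swim, and 1809, 1883 and 1726 CPM in Des-/- swim libraries. The genotypes overlapped without swimming, and after swimming all Des-/- libraries lay below all Des+/+ libraries. The difference after swimming was -0.68 ± 0.26 on the log2 scale and was not called by edgeR (adjusted p = 0.109), but was by DESeq2 (adjusted p = 0.0431).

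Timp4, an inhibitor with a high level in heart tissue (ENSMUSG00000030317, chromosome 6:115241892-115252205, minus strand), varied widely between replicates. The values were 99.7, 194 and 242 CPM in Des+/+ non-swim, 377, 613 and 286 CPM in Des+/+ swim, 138, 152 and 52.9 CPM in Des-/- non-swim, and 296, 709 and 229 CPM in Des-/- swim libraries. The genotypes overlapped in both exercise states. Neither difference passed the test, at -0.64 ± 0.51 on the log2 scale without swimming (edgeR adjusted p = 0.358) and -0.05 ± 0.50 after it (edgeR adjusted p = 0.955).

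Among the secreted proteases, Mmp2 encodes gelatinase A, which degrades denatured collagen and basement membrane collagen (ENSMUSG00000031740, chromosome 8:92827291-92853420, plus strand). Mmp2 was at 161, 164 and 203 CPM in Des+/+ non-swim, 169, 138 and 159 CPM in Des+/+ swim, 358, 298 and 508 CPM in Des-/- non-swim, and 230, 196 and 304 CPM in Des-/- swim libraries. All Des-/- libraries lay above all Des+/+ libraries of the same exercise state. The increase without swimming was 1.14 ± 0.22 on the log2 scale (edgeR adjusted p = 0.00327), and it was called with any library of the comparison left out, at 0.90 to 1.30. After swimming the difference was 0.65 ± 0.22 and not called by edgeR (adjusted p = 0.0747), while DESeq2 called it (adjusted p = 0.0289).

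Mmp3 encodes stromelysin-1, which cuts proteoglycans and can activate other MMP precursors (ENSMUSG00000043613, chromosome 9:7445822-7455975, plus strand). Its level was low, at 0.943, 6.43 and 4.15 CPM in Des+/+ non-swim, 3.66, 0.321 and 1.28 CPM in Des+/+ swim, 17.3, 7.70 and 15.7 CPM in Des-/- non-swim, and 39.1, 12.7 and 17.2 CPM in Des-/- swim libraries. The lowest of these values rests on 3 reads and the highest on 275 reads. Des-/- libraries were above Des+/+ libraries in both exercise states without overlap. After swimming the log2 change was 3.71 ± 0.81 (edgeR adjusted p = 0.0202). That call was lost without the Des-/- swim replicate 1 (3.09, edgeR adjusted p = 0.0599) and without the Des+/+ swim replicate 3 (3.55, edgeR adjusted p = 0.0829), and was kept without both of the Des-/- libraries numbered 3 (3.91, edgeR adjusted p = 0.0181). Without swimming the difference of 1.82 ± 0.73 was not called by edgeR (adjusted p = 0.0776) but was by DESeq2 (adjusted p = 0.0359).

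Mmp12, the macrophage elastase (ENSMUSG00000049723, chromosome 9:7344381-7369499, plus strand), was near the floor in most libraries. It had 0.943, 0.818 and 0.902 CPM in Des+/+ non-swim, 2.83, 0.428 and 0.854 CPM in Des+/+ swim, 2.13, 2.15 and 141 CPM in Des-/- non-swim, and 1.71, 0.656 and 4.00 CPM in Des-/- swim libraries. Replicate 3 of the Des-/- non-swim group held 1612 reads of Mmp12, and the other 2 libraries of that group held 20 and 19. The fitted increase without swimming, 5.75 ± 1.56 on the log2 scale (edgeR adjusted p = 0.0166), was 1.26 without that library and was not called (edgeR adjusted p = 0.262). It was also not called when any 1 of the Des+/+ non-swim libraries was left out (edgeR adjusted p = 0.0530, 0.0641 and 0.0602), and DESeq2 gave no adjusted p for it. The Mmp12 call therefore rests on 1 library. After swimming the groups overlapped and the difference was 0.67 ± 1.59 (edgeR adjusted p = 0.803).

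Mmp9, gelatinase B, a product of neutrophils and macrophages among other cells (ENSMUSG00000017737, chromosome 2:164940780-164955850, plus strand), did not pass the filter. Its counts were 10, 2 and 9 in Des+/+ non-swim, 7, 9 and 1 in Des+/+ swim, 16, 8 and 87 in Des-/- non-swim, and 5, 0 and 4 in Des-/- swim libraries. The highest value, 7.61 CPM, was again in the Des-/- non-swim replicate 3, and the 0 allows up to 0.656 CPM at the depth of that library. In the 12 alternative fits without swimming in which Mmp9 was retained, it was called in 1.

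Mmp14 encodes a membrane-bound collagenase, the main activator of the MMP-2 precursor at the cell surface (ENSMUSG00000000957, chromosome 14:54431612-54445364, plus strand). It had 41.3, 53.5 and 40.4 CPM in Des+/+ non-swim, 39.0, 23.9 and 49.2 CPM in Des+/+ swim, 102, 89.8 and 399 CPM in Des-/- non-swim, and 37.8, 45.5 and 125 CPM in Des-/- swim libraries. The genotypes did not overlap without swimming and overlapped after it. The increase without swimming was 2.13 ± 0.60 on the log2 scale (edgeR adjusted p = 0.0190). Without the Des-/- non-swim replicate 3 it was 1.10 and not called (edgeR adjusted p = 0.0871), and the call was likewise lost without any 1 of the Des+/+ non-swim libraries (edgeR adjusted p = 0.0595, 0.0528 and 0.0664). With both of the Des-/- libraries numbered 3 left out it was 1.16 and called (edgeR adjusted p = 0.00487). After swimming the difference was 0.90 ± 0.59 (edgeR adjusted p = 0.322).

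Mmp15, a second membrane-bound MMP (ENSMUSG00000031790, chromosome 8:95352268-95375080, plus strand), did not pass the test in any comparison. Its values were 346, 316 and 279 CPM in Des+/+ non-swim, 202, 233 and 169 CPM in Des+/+ swim, 326, 333 and 174 CPM in Des-/- non-swim, and 178, 178 and 192 CPM in Des-/- swim libraries. The genotypes overlapped in both exercise states, with log2 differences of -0.17 ± 0.22 without swimming (edgeR adjusted p = 0.583) and -0.14 ± 0.22 after it (edgeR adjusted p = 0.702).

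Counting members whose libraries did not overlap between genotypes, 6 of the 9 tested lay higher in Des-/- cells without swimming, namely Timp1, Timp2, Mmp2, Mmp3, Mmp12 and Mmp14, where 47.9% of all genes did not overlap and 23.0% lay higher. After swimming Timp1, Timp2, Mmp2 and Mmp3 lay higher and Timp3 lower, 5 of 9, against 35.9% of all genes, 17.3% higher and 18.6% lower. The median log2 difference of the 9 members was 1.24 without and 0.65 after swimming, and that of all genes 0.04 and 0.02. The 2 genotype comparisons use different libraries. These counts and medians are descriptions, since the members were chosen with earlier results of these data known. Mmp12 also met the filter's level in 3 Des-/- non-swim libraries and in no Des+/+ non-swim library.

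**Figure D2:**
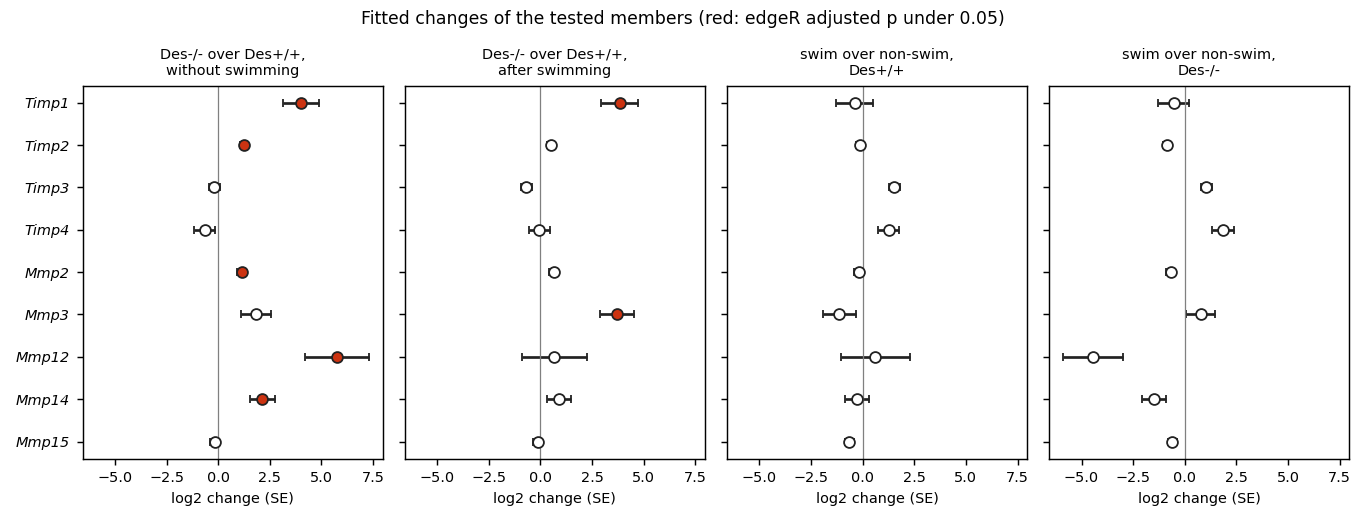
Fitted log2 change of the 9 tested members in the 4 comparisons, with bars for the standard error (SE) from all 12 libraries, filled red where the edgeR adjusted p was under 0.05. Without swimming 5 members were called higher in Des-/- cells and after swimming 2, while none was called for swimming in either genotype.

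Swimming was compared within each genotype. In Des+/+ cells Timp3 stood 1.54 ± 0.27 higher on the log2 scale in the swim group (2903 ± 736 against 999 ± 241 CPM, SD, n = 3), a 2.91-fold difference just outside the threshold (edgeR adjusted p = 0.0507). No member was called by edgeR, with 3 at an unadjusted p under 0.05 (Timp3, Timp4 and Mmp15) and 1, Timp3, by DESeq2 (adjusted p = 4.79e-07). Of all genes, 0.0912% were called by edgeR, 20.5% had an unadjusted p under 0.05 and 6.06% were called by DESeq2. Timp3 was called in 8 of the 21 other fits, at 1.31 to 1.72 over all of them. The log2 difference was 1.25 ± 0.51 for Timp4 (edgeR adjusted p = 0.203) and -0.64 ± 0.23 for Mmp15 (edgeR adjusted p = 0.155). These 3 genes were the members whose swim and non-swim libraries did not overlap, where 31.3% of all genes did not.

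In Des-/- cells the swim libraries also did not overlap the non-swim libraries for Timp3 (higher), Timp4 (higher) and Timp2 (lower), 3 of 9 against 19.4% of all genes. The log2 differences were 1.05 ± 0.27 for Timp3 (edgeR adjusted p = 0.186), 1.84 ± 0.52 for Timp4 (edgeR adjusted p = 0.193) and -0.85 ± 0.20 for Timp2 (edgeR adjusted p = 0.176). No member was called by edgeR, where 0.0228% of all genes were, and 7 had an unadjusted p under 0.05, where 16.7% of all genes had. DESeq2 called Timp2, Timp3 and Timp4, against 2.58% of all genes (adjusted p = 0.00499, 0.00499 and 0.0176). Same-numbered Des-/- libraries deviated together, and with the replicate number as a block within genotype Timp2 fell by 0.85 on the log2 scale and was called (edgeR adjusted p = 0.0428), the 1 member called by edgeR in that fit.

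For Mmp12 in Des-/- cells the difference of swim from non-swim was -4.46 ± 1.45 on the log2 scale (edgeR adjusted p = 0.204), a value that became 0.02 without the Des-/- non-swim replicate 3. It was -1.51 ± 0.59 for Mmp14 (edgeR adjusted p = 0.253) and -0.67 ± 0.22 for Mmp2 (edgeR adjusted p = 0.203), both with overlapping libraries. Timp1 (-0.55 ± 0.75, edgeR adjusted p = 0.741) and Mmp3 (0.77 ± 0.69, edgeR adjusted p = 0.592) did not pass either. In both genotypes, then, the 2 TIMPs that were higher in all swim libraries were Timp3 and Timp4. The swimming comparisons share no libraries with each other, but each shares 1 group with each genotype comparison.

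Whether the swimming difference depended on genotype was tested as an interaction. No member was called by edgeR or DESeq2, nor was any of the 13158 genes by edgeR, while 2 members and 16.3% of all genes had an unadjusted p under 0.05 and DESeq2 called 2.27% of all genes. The 2 members were Timp2 (-0.72 ± 0.28, edgeR adjusted p = 0.243) and Mmp12 (-5.08 ± 2.20, edgeR adjusted p = 0.287). Leaving out the Des-/- non-swim replicate 3 made the Mmp12 value -0.60. Differences between the genotypes in their response to swimming were not detectable for these genes with 3 libraries per group.

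The balance of the families was described on a scale per length, as CPM per kilobase of merged annotated exons. The merged length covers all annotated transcripts of a gene, from 888 bases for Timp1 to 8144 for Timp3. Which transcripts were present was not resolved, so the order of genes, the shares and the ratios below depend on these lengths. In Des+/+ non-swim libraries Timp3 had the highest level (123 ± 29.6 CPM per kilobase), followed by Timp2 (62.8 ± 3.49), Mmp15 (58.1 ± 6.24) and Mmp2 (52.2 ± 6.98), of which neighbours in the order overlapped in range except Timp3 and Timp2. Timp4 (30.3 ± 12.3) came next without overlap, then Mmp14 (7.56 ± 1.23) and Timp1 (6.85 ± 1.47), which overlapped, and Mmp3 (2.13 ± 1.53). Mmp9 (0.210 ± 0.135) and Mmp12 (0.123 ± 0.00879) were lowest and overlapped. In Des+/+ swim libraries Timp3 was again the highest, at 356 ± 90.3 CPM per kilobase and without overlap with Timp4 (72.2 ± 28.7), which now stood beside Timp2 (57.6 ± 4.50) with overlapping ranges.

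The order differed in Des-/- non-swim libraries, in which Timp2 (149 ± 35.1 CPM per kilobase), Mmp2 (115 ± 32.1), Timp1 (110 ± 113) and Timp3 (107 ± 27.0) followed each other with overlapping ranges. Timp1, the seventh in the order of both Des+/+ groups, was the third here and in Des-/- swim libraries (75.5 ± 78.1). Timp3 was the highest in Des-/- swim libraries (222 ± 9.68) without overlap with Timp2 (82.6 ± 18.1).

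As a share of the 4 TIMPs, Timp3 made up 49.0 to 57.7% in Des+/+ non-swim, 65.8 to 80.4% in Des+/+ swim, 14.8 to 40.8% in Des-/- non-swim and 40.8 to 57.9% in Des-/- swim libraries. Timp1 made up 2.41 to 4.01%, 0.755 to 1.81%, 9.64 to 46.7% and 5.85 to 31.9% in the same order. The share of Timp1 was thus higher in every Des-/- library than in any Des+/+ library. Of the 6 MMPs, Mmp2 made up 39.9 to 57.5% over all 12 libraries, and Mmp15 42.6 to 53.5% in Des+/+ non-swim against 11.5 to 36.3% in Des-/- non-swim libraries. Mmp3 took 6.10 to 16.7% in Des-/- swim libraries, and at most 4.96% in the other groups.

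Summed over the members, the ratio of TIMP to MMP transcripts per kilobase was 1.59 to 2.19 in Des+/+ non-swim, 4.49 to 6.55 in Des+/+ swim, 1.76 to 1.83 in Des-/- non-swim and 2.96 to 4.21 in Des-/- swim libraries. The non-swim groups of both genotypes covered the same low range, and the swim libraries lay above it in both genotypes, with Des-/- below Des+/+. In Des-/- non-swim libraries both sums were higher than in Des+/+ non-swim libraries, with 301 to 514 against 191 to 265 CPM per kilobase for the TIMPs and 170 to 280 against 120 to 121 CPM per kilobase for the MMPs. These ratios concern transcripts and were not tested, since the members were chosen with results known.

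**Figure D3:**
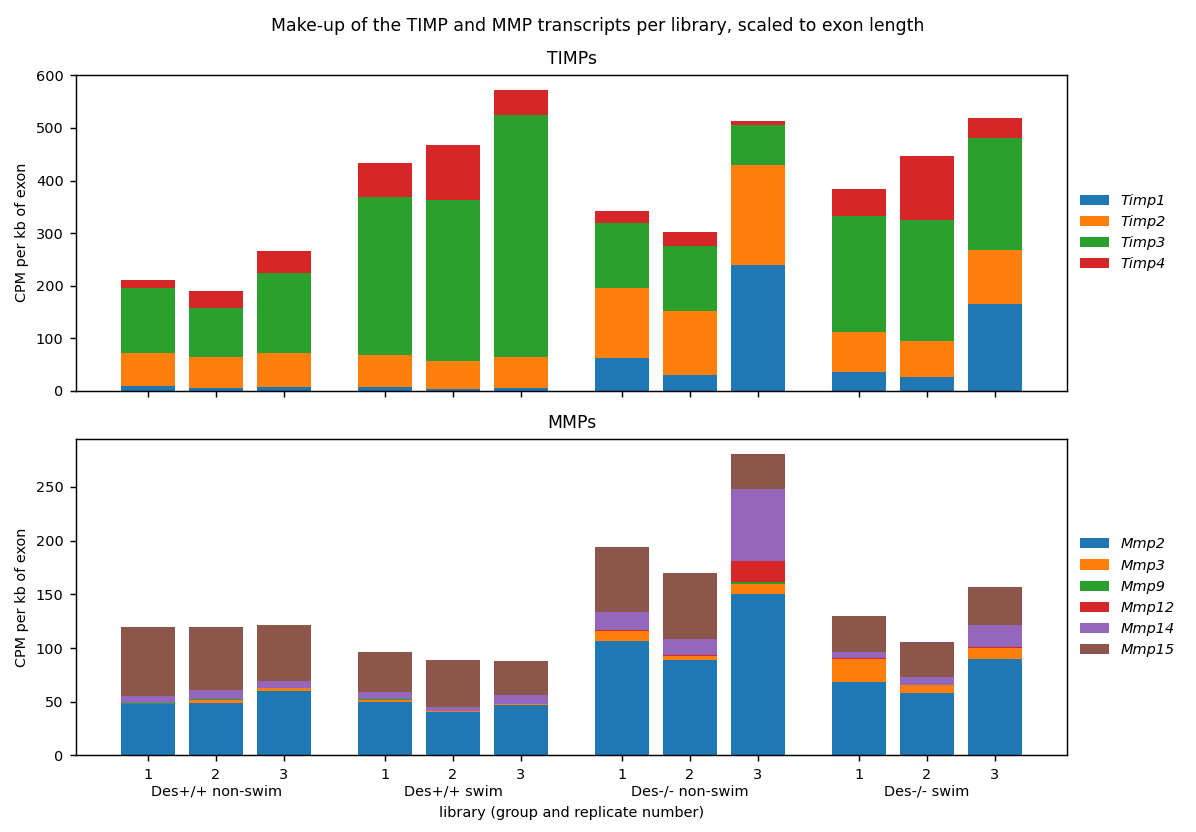
Stacked levels of the 4 TIMPs (top) and the 6 MMPs (bottom) in each of the 12 libraries in CPM per kilobase of exon, with 1 bar for each library in the order of group and replicate number. Timp3 forms 65.8 to 80.4% of the TIMP bars of the Des+/+ swim group, and Timp1 and Mmp14 are widest in replicate 3 of the Des-/- groups.

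The levels were then set beside markers of the cells that the isolates could hold. Without swimming 11 of 12 fibroblast, 9 of 12 macrophage, 1 of 3 tested neutrophil, 2 of 5 tested lymphocyte and 1 of 6 mesothelial markers were called higher in Des-/- cells, and all 12 cardiomyocyte markers lower. None of the 10 endothelial markers was called, and of 8 mural markers 1 was lower. After swimming 3 fibroblast and none of the macrophage, neutrophil, lymphocyte, endothelial, mural or mesothelial markers were called higher, and 1 cardiomyocyte marker was lower. Of 13 genes of the response to cell isolation 10 were called higher without and 8 after swimming. Of all genes tested, 14.0% were called higher and 18.0% lower without swimming, and 5.01% and 5.57% after it. Without the Des-/- non-swim replicate 3, the counts without swimming were 6 fibroblast, 0 macrophage, 0 neutrophil, 1 lymphocyte, 1 mesothelial and 6 isolation response genes higher and 11 cardiomyocyte markers lower. With both of the Des-/- libraries numbered 3 left out they were 11, 7, 0, 3, 1 and 10 higher and 11 lower. After swimming, 2 fibroblast and 2 isolation response genes were called higher and 0 cardiomyocyte markers lower without the Des-/- swim replicate 3, and 3, 6 and 1 without both. The fits without 1 and without both libraries called 21.1% and 28.0% of all genes without swimming, and 4.97% and 11.9% after it. No marker of any of these lists was called for swimming, where edgeR called 0.0912% of all genes in Des+/+ and 0.0228% in Des-/-. The list sums still differed. In Des+/+ the fibroblast and cardiomyocyte sums were lower in all swim libraries. The endothelial sums were higher there (7145 to 10558 against 5796 to 7072 CPM). In Des-/- the lymphocyte sums were lower in all swim libraries. The other sums overlapped. Of the neutrophil markers, summed at 0.996 to 49.4 CPM, 1 to 4 were at 0 in all libraries of a group, and in every other list no marker was.

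Relative to each 1000 CPM of the fibroblast list, Timp1 stood at 1.35 to 1.85 CPM in Des+/+ non-swim, 1.05 to 2.06 CPM in Des+/+ swim, 2.92 to 5.73 CPM in Des-/- non-swim and 5.19 to 11.3 CPM in Des-/- swim libraries, so that the genotypes still did not overlap. Mmp14 stood at 10.1 to 14.4, 8.94 to 13.5, 10.1 to 10.7 and 7.26 to 10.2 CPM on this scale, with all 4 groups overlapping. Timp2 stood at 61.1 to 65.5 and 63.8 to 76.5 CPM in Des+/+ libraries and at 19.8 to 54.4 and 30.9 to 59.7 CPM in Des-/- libraries, which is lower, the reverse of its CPM. The lowest of these were the replicates numbered 3. In Des+/+ non-swim libraries the collagens Col1a1, Col1a2 and Col3a1 made up 42.5 to 53.4% of the fibroblast sum. In Des-/- non-swim libraries they made up 54.2 to 87.5%. After swimming the shares were 36.7 to 41.8% in Des+/+ and 30.5 to 71.1% in Des-/- libraries. The make-up of the sum thus differed between genotypes without swimming, which bears on every ratio to it. Mmp2 stood at 39.5 to 52.2 and 43.6 to 51.6 CPM in Des+/+ libraries and at 13.7 to 35.3 and 23.4 to 44.2 CPM in Des-/- libraries.

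After swimming, Mmp3 on this scale was 0.120 to 1.08 CPM in Des+/+ and 1.33 to 7.51 CPM in Des-/- libraries without overlap, whereas without swimming the genotypes overlapped (0.231 to 1.73 and 0.421 to 1.71 CPM). Per 1000 CPM of the macrophage list, Mmp12 was 2.46 to 3.49 CPM in Des+/+ non-swim and 2.87 to 31.6 CPM in Des-/- non-swim libraries. Timp3 per 1000 CPM of the endothelial list was 131 to 198 CPM in Des+/+ non-swim against 237 to 470 CPM in Des+/+ swim libraries, and 125 to 150 CPM against 217 to 249 CPM in Des-/- libraries. Per 1000 CPM of the cardiomyocyte list it was 6.89 to 16.2 CPM against 41.8 to 74.4 CPM in Des+/+ libraries, and 29.5 to 85.8 CPM against 61.0 to 97.1 CPM in Des-/- libraries. The swim libraries thus lay above the non-swim libraries for Timp3 in both genotypes relative to the endothelial list, but relative to the cardiomyocyte list in Des+/+ alone, while the Des-/- groups overlapped.

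Timp4 per 1000 CPM of the cardiomyocyte list was 1.37 to 3.15 CPM in Des+/+ non-swim, 5.67 to 17.1 CPM in Des+/+ swim, 4.49 to 8.98 CPM in Des-/- non-swim and 9.96 to 23.8 CPM in Des-/- swim libraries, with swim above non-swim in both genotypes. Mmp15 on the same scale was 2.86 to 4.75, 3.35 to 6.50, 9.82 to 24.1 and 5.99 to 10.8 CPM in that order of groups, so that the genotypes overlapped after swimming and not without it. Relative to the macrophage list, Timp1 (17.6 to 22.0, 10.4 to 21.7, 47.8 to 74.6 and 82.9 to 101 CPM) did not overlap between genotypes, and all 4 groups overlapped for Mmp14 (108 to 188, 77.1 to 136, 89.5 to 196 and 85.9 to 163 CPM). The pairs of member and list were chosen after the levels of the members were seen, and the part of these cells in the differences was not tested.

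**Figure D4:**
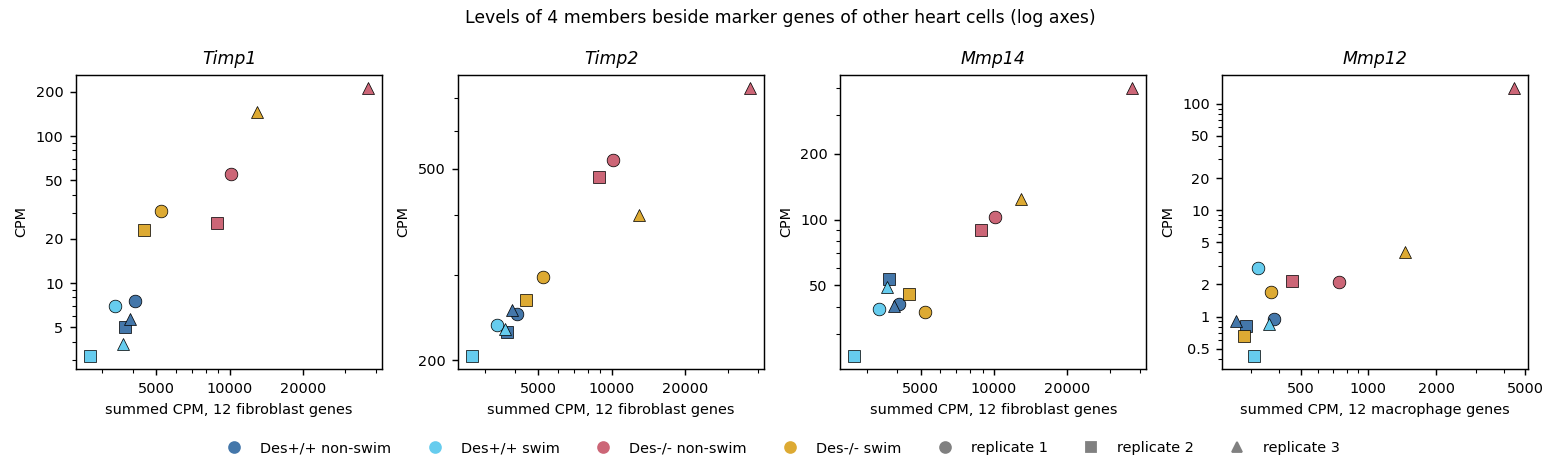
Level of Timp1, Timp2 and Mmp14 in CPM against the summed CPM of 12 fibroblast markers, and of Mmp12 against that of 12 macrophage markers, on log axes, with 1 point per library coloured by group and shaped by replicate number. Replicate 3 of the Des-/- non-swim group has the highest value on both axes of every panel, with 37196 CPM of fibroblast and 4461 CPM of macrophage markers.

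Across the 12 libraries, the genes whose log2 CPM followed each member most closely were found by Pearson's r, given as a description because the libraries share groups and depth. Timp2 and Mmp2 were among each other's closest genes (r = 0.983). Timp1 ran closest to Pcolce, an enhancer of procollagen processing (r = 0.978), Pou2f2 (0.977) and Bgn, the proteoglycan biglycan (0.976). The closest genes to Timp2 were Arap1 (0.984), Mmp2 and Antxr1 (0.982), and those to Mmp2 were Timp2, Islr (0.981) and Arap1 (0.978).

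Mmp14 ran with Wdfy4 (r = 0.991), Col26a1 (0.985) and Col1a1, a chain of type I collagen (0.985), and Mmp12 with the leukocyte integrin chain Itgb2 (0.970), Lgals3 (0.966) and the macrophage marker Cd68 (0.965). For both members the Des-/- non-swim replicate 3 was the highest library. Timp3, which has its highest levels in the swim groups, ran with Tinagl1 (0.978), Dbndd2 (0.948) and the Notch ligand Jag2 (0.942), and Timp4 with the alcohol dehydrogenase Adh1 (0.963), Ablim3 (0.916) and the transporter Abcg2 (0.907). For Mmp3 the closest were Ankrd35 (0.945), Tmem222 (0.940) and the matrix protein Prelp (0.937), and for Mmp15 Wfdc1 (0.922), Laptm4b (0.890) and Arap2 (0.844).

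Several members lie inside or beside other genes, which bears on how reads were assigned. Timp1 lies within Syn1, Timp3 within Syn3 and Timp4 within Syn2, each on the strand opposite to its synapsin host. Timp3 shares 1733 bases of exon with Syn3, Timp4 shares 90 with Syn2, and Mmp12 shares 157 with Mmp1b on the other strand. Counts of the partners were low, at 0 to 30 per library for Syn1, 26 to 99 for Syn2, 0 to 3 for Syn3 and 0 for Mmp1b. Cep295nl, on the same strand as Timp2 and without a shared exon, had 0 to 10 counts.

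Of the 17 other MMP genes, 1 was not analysed here, 10 did not pass the filter and 6 were tested. In this group 2 were called higher in Des-/- cells without swimming, and none lower. Of all genes tested, 14.0% were called higher and 18.0% lower in that comparison. Mmp19, a secreted MMP, rose from 7.37 ± 1.54 to 29.7 ± 19.2 CPM (log2 change 2.01 ± 0.44, edgeR adjusted p = 0.00592). Mmp23 rose from 16.2 ± 2.25 to 63.9 ± 23.7 CPM (1.98 ± 0.33, edgeR adjusted p = 0.00177). After swimming Mmp23 alone of the 6 was called, at 12.9 ± 1.92 against 56.8 ± 28.2 CPM (2.14 ± 0.34, edgeR adjusted p = 0.0106). There 5.01% of all genes were called higher and 5.57% lower. Without replicate 3 of the Des-/- group compared, the log2 changes were 1.34 for Mmp19 (edgeR adjusted p = 0.0160) and, for Mmp23, 1.63 without swimming (edgeR adjusted p = 0.00417) and 1.66 after it (edgeR adjusted p = 0.0230), all still called. The median log2 difference of the 6 genes was 0.63 without and 0.71 after swimming.

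Of 29 ADAM and ADAMTS proteases, which shed membrane proteins or cut matrix proteoglycans and procollagens, 26 were tested and 7 were called higher without swimming and none lower. These 7 of 26 stand beside 32.0% of all genes called, 14.0% higher and 18.0% lower. Adam8, a protease of leukocytes, showed the largest change of these (5.46 ± 1.69 on the log2 scale, edgeR adjusted p = 0.0291), with 74.9 ± 125 CPM in Des-/- against 1.69 ± 0.256 CPM in Des+/+ libraries, an SD above its mean. Adamts4 (3.21 ± 1.13, edgeR adjusted p = 0.0485), an aggrecanase, overlapped between genotypes. Adam33 (2.48 ± 0.64, edgeR adjusted p = 0.0134) and the procollagen N-proteinase Adamts2 (2.46 ± 0.58, edgeR adjusted p = 0.00863) did not. Without the Des-/- non-swim replicate 3, the other 2 libraries of that group held 2.87 and 2.94 CPM of Adam8. The calls of Adam8 (0.78, edgeR adjusted p = 0.597) and Adamts4 (0.84, edgeR adjusted p = 0.497) were then lost, while Adam33 (2.37, edgeR adjusted p = 0.0308) and Adamts2 (1.66, edgeR adjusted p = 0.0269) were among the 5 genes of the list called. That fit called 21.1% of all genes.

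After swimming 4 of the 26 were called, all higher, against 10.6% of all genes, 5.01% higher and 5.57% lower. Adam33 rose by 2.38 ± 0.63 (edgeR adjusted p = 0.0369) and Adamts6 by 1.90 ± 0.49 on the log2 scale (edgeR adjusted p = 0.0334). Adamts10 rose from 120 ± 14.9 to 293 ± 53.6 CPM (1.28 ± 0.18, edgeR adjusted p = 0.00887) and Adamts5, an aggrecanase, from 57.7 ± 5.69 to 127 ± 47.4 CPM (1.14 ± 0.24, edgeR adjusted p = 0.0177). Without the Des-/- swim replicate 3, Adamts10 (1.14, edgeR adjusted p = 0.0230) and Adamts5 (0.80, edgeR adjusted p = 0.0400) were called, and Adam33 (1.52, edgeR adjusted p = 0.124) and Adamts6 (1.02, edgeR adjusted p = 0.101) were not. The list's median log2 difference was 1.04 without and 0.72 after swimming.

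Of 19 genes of MMP activation and control, such as plasminogen activators and their inhibitors, proprotein convertases, thrombospondins and clearance receptors, 16 were tested. Without swimming 7 were called higher and 1 lower, against 32.0% of all genes, 14.0% higher and 18.0% lower. Thbs1 (thrombospondin-1) stood at 417 ± 534 CPM in Des-/- against 25.7 ± 8.27 CPM in Des+/+ libraries (4.02 ± 0.93, edgeR adjusted p = 0.00790). Lrp1, an endocytic receptor that clears MMPs and TIMPs, rose from 334 ± 31.0 to 1129 ± 615 CPM (1.76 ± 0.32, edgeR adjusted p = 0.00263), and Thbs2 rose by 1.32 ± 0.29 on the log2 scale (edgeR adjusted p = 0.00567). Bsg (basigin, known as an inducer of MMP synthesis) fell from 1230 ± 155 to 536 ± 42.4 CPM (-1.20 ± 0.18, edgeR adjusted p = 0.00112). Without the Des-/- non-swim replicate 3, in which case 5 genes of the list were called higher and 2 lower, these 4 kept their calls. Of all genes 21.1% were called in that fit. The log2 changes were then 2.09 for Thbs1 (edgeR adjusted p = 0.0199), with 69.7 and 150.3 CPM in the remaining Des-/- libraries, 1.22 for Lrp1 (edgeR adjusted p = 0.00300), 0.85 for Thbs2 (edgeR adjusted p = 0.00811) and -1.13 for Bsg (edgeR adjusted p = 0.00337).

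After swimming no gene of the list on MMP activation and control was called higher, and Furin, a convertase that activates membrane-type MMP precursors, was lower, at 136 ± 9.11 against 215 ± 2.92 CPM (-0.66 ± 0.16, edgeR adjusted p = 0.0267). Of all genes 5.01% were called higher and 5.57% lower there. The Furin call was lost without the Des-/- swim replicate 3 (-0.61, edgeR adjusted p = 0.0732) and kept without both of the Des-/- libraries numbered 3 (-0.60, edgeR adjusted p = 0.0192). The median log2 difference was 0.86 without and 0.13 after swimming. For swimming in either genotype and for the interaction, none of the tested genes of the 3 related lists was called by edgeR. Of all genes, edgeR called 0.0912% for swimming in Des+/+, 0.0228% for swimming in Des-/- and none in the interaction. The fibroblast sums given above did not overlap between the genotypes in either exercise state. The macrophage sums did not overlap without swimming and overlapped after it. The part of these cells in the related lists was not tested.

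**Figure D5:**
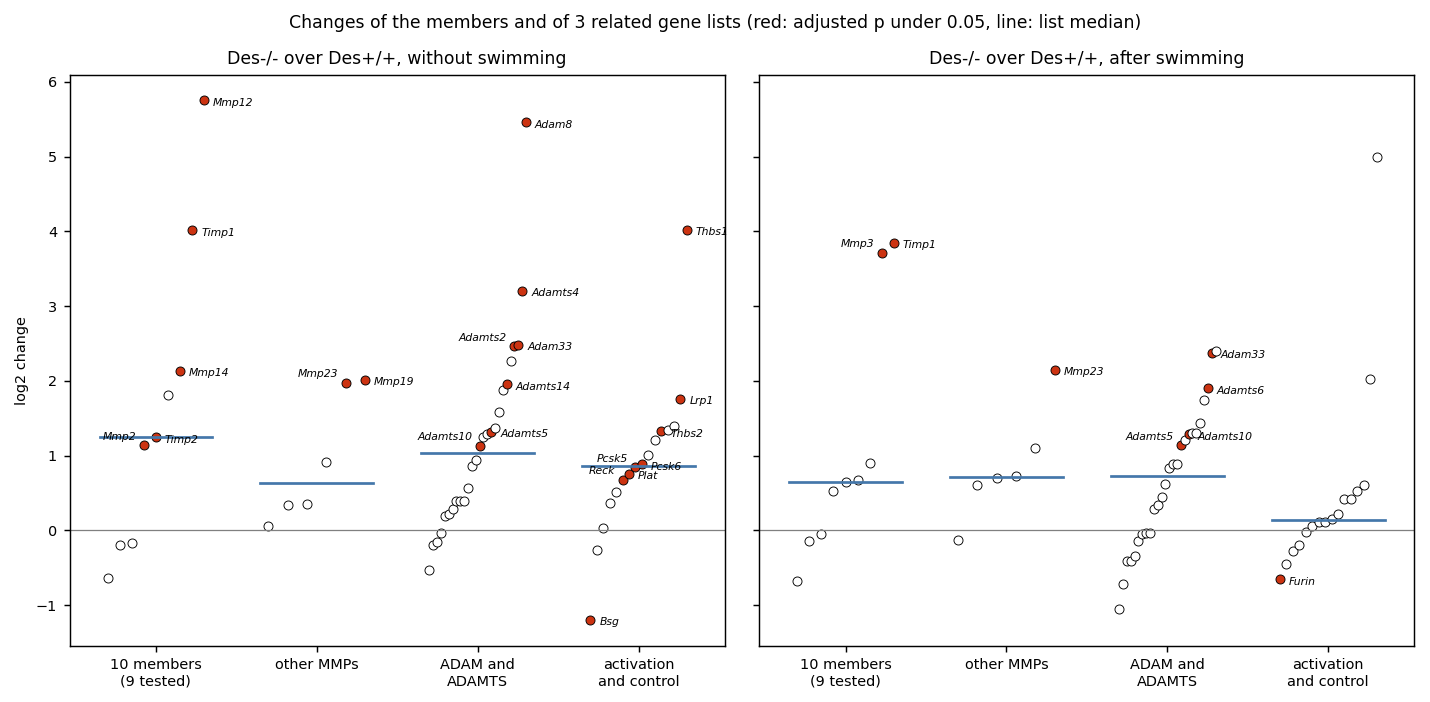
Fitted log2 change between genotypes of the members and of the tested genes of 3 related lists, without swimming (left) and after it (right), with 1 point per gene, a line at the median of each list and red for an edgeR adjusted p under 0.05. Called genes lie above 0 in all 4 lists on the left except Bsg, and on the right 2 members, 1 other MMP and 4 ADAM or ADAMTS genes lie above 0 and Furin below.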

How the data were processed

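Poly-A RNA of 12 cardiomyocyte libraries was analysed from deposited raw counts for each gene, made by the authors with HISAT2 2.2.1, SAMtools 1.13 and HTSeq-count in reverse-strand mode on GRCm38, without normalization. The kit given in the labels does not keep strand, whereas that given by the study's methods does. The authors' own tests used DESeq2 1.40.2. Groups came from the sample labels.

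The tests used edgeR 4.0.16 under R 4.3.3, with filterByExpr (13158 genes kept) and TMM scaling. One mean per group was estimated from all 12 libraries together, leaving 8 residual degrees of freedom, with a common biological coefficient of variation of 0.271. Quasi-likelihood F tests were made for genotype in each exercise state, swimming within either genotype and their interaction. A gene was called at a Benjamini-Hochberg adjusted p under 0.05 over all genes tested. The SE of a log2 change is its size divided by the square root of F, and means are given with the SD. Marker and related lists were summed or counted, not tested as sets. DESeq2 1.42.0 served as an alternative test. On simulated counts for both genotype comparisons, edgeR recovered 35 of 100 genes changed by 1 and 98 of 100 changed by 2 on the log2 scale. The simulation drew the changed genes only from those above a set mean level. It gave every gene the common coefficient of variation, and no simulated library stood apart. Its recovery therefore does not carry over to members that vary more, such as Timp1, Mmp12 and Mmp14. No replicate pair agreed within sampling noise. Since nothing else is known of how pools were formed, p-values measure the spread between these libraries.

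All 10 members are named. Of each related list, up to 4 called genes with the largest change and a mean count of at least 20 are named per genotype comparison, and for each member with that mean count the 3 genes with the highest r. The members and lists were chosen with earlier results of these data known. Same-numbered Des-/- non-swim and swim libraries deviated together (correlations of 0.365, 0.316 and 0.602 between their deviations from the group means). The main fit had no block and did not use this pairing. The replicate number entered only in alternative fits, as a block. Alternatives were other scalings, filters, tools and blocks, the study's filter and the omission of libraries. Positions came from GENCODE M21. Protein sequences were not used here.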

Additional observations from a re-analysis of the deposited data

How the results depend on the processing

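Members called without swimming (5) numbered 4 to 6 under every alternative other than the omission of 1 library. These fits called 22.5% to 36.4% of all genes, against 32.0% in the main fit. After swimming (2, with 10.6% of all genes), DESeq2 called 5 (17.7% of all genes) and the study's filter with unadjusted p called 4 (17.6%). For swimming in Des+/+ cells (0), the study's filter called 3, and RLE scaling, no filter on low counts, DESeq2, a fit of only the 6 libraries compared, the replicate block within genotype and the omission of both Des-/- libraries numbered 3 (chosen after seeing the data) called 1 each, which was Timp3. The study's filter called 10.3% of all genes there and the others 0.258% to 6.06%, against 0.0912% in the main fit. For swimming in Des-/- cells (0, with 0.0228% of all genes), the study's filter called 7 (8.61% of all genes), DESeq2 3 (2.58%) and the replicate block within genotype 1 (0.638%). Leaving out 1 library gave 3 to 6 without swimming, 0 to 4 after it (0 without Des+/+ swim replicate 3, 4 without Des-/- non-swim replicate 3), 0 to 1 for swimming in Des+/+, and 0 for swimming in Des-/- and the interaction. The share of all genes called moved as well. Without swimming it was 19.5% to 34.4% over these fits. After swimming it was 0.55% in the fit with 0 members and 16.1% in the fit with 4. For swimming in Des+/+ it was at most 1.17%.

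The replicate number as a block over all libraries gave 5 and 3 members for the genotype comparisons, and as a block within exercise state 4 and 2. The shares of all genes called were 31.0% and 9.95% in the former fit and 28.6% and 8.53% in the latter. Outside the Des-/- groups same-numbered libraries did not all deviate together (correlations from -0.41 to 0.134), so that they share only a number there, and not every library correlated best with its own number.

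None of the differences that changed sign was called. With both Des-/- libraries numbered 3 left out, the log2 difference became 0.068 for Timp3 and 0.14 for Mmp15 without swimming, 0.23 for Timp4 and -0.13 for Mmp12 after it, and -0.31 for Mmp15 in the interaction. Upper-quartile scaling gave 0.048 for Timp4 after swimming and no filter -0.028 for Mmp15 in the interaction. Leaving out 1 library, the ranges that crossed 0 were -0.36 to 0.0036 (Timp3) and -0.33 to 0.077 (Mmp15) without swimming, -0.70 to 0.31 (Timp4) and -0.13 to 1.80 (Mmp12) after it, -0.51 to 1.07 (Mmp12, swimming in Des+/+), -1.86 to 0.72 (Timp1) and -5.26 to 0.023 (Mmp12) for swimming in Des-/-, and, in the interaction, -1.48 to 1.09 (Timp1), -0.053 to 0.95 (Timp4) and -0.22 to 0.19 (Mmp15). The causes were not tested. DESeq2 gave no adjusted p for Mmp12 in any comparison. Depth limits Mmp3, Mmp9 and Mmp12, whose lowest libraries lie at or under the 3-count floor.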
